A study of Drosophila melanogaster with 16 samples.

Results

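Gene expression in wild-type Drosophila melanogaster embryos aged 14-17 h was compared with that in wild-type embryos aged 2-4 h. The comparison takes the libraries whose titles give these ages and the wild type: replicates 1, 2, 3, 5 and 6 at 14-17 h (n = 5) and replicates 1, 2 and 3 at 2-4 h (n = 3), which are 8 of the 16 libraries of the study. Both groups are OregonR, a laboratory strain, carry no mutation or transgene according to the labels, and were treated alike: intact embryos had their chorions removed with bleach and went straight into RNA extraction, and polyadenylated RNA was enriched on oligo(dT). The other 8 libraries are Lola-I mutants and enter only 1 alternative fit. Values within a group are always listed in the replicate order given here.

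At the younger age the embryo passes from nuclear cycles run on maternal RNA and protein to transcription of its own genome: the syncytial nuclei are enclosed by membranes, maternal transcripts are degraded, the segmentation and dorsal-ventral genes divide the body, and gastrulation begins. At the older age organogenesis is nearly complete: most cells have left the mitotic cycle, muscles, nerves, gut and tracheae become functional, and the epidermis secretes the larval cuticle. The question the comparison answers is which tissues and functions lost and gained transcripts between these ages.

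The deposited values are estimated counts and TPM, an abundance corrected for gene length and library size, for 17753 genes. The listed length was the whole genomic span, introns included, for 99.3% of the genes with a position in the annotation, so a TPM value is set against the same gene at the other stage, and no order of genes by TPM is read as an order of transcript abundance. Fractional counts mark reads shared out between genes. Of 294 genes chosen for naming, 60 had fractional counts in 7 or 8 libraries, and AGO3, bcd, dl, Vha68-2, Ccp84Aa, psq, Su(z)2, ND-AGGG, nAChRalpha4 and spok were those among them that overlap no other gene. Spans overlap another gene for 8396 genes, and a dagger (†) after a symbol marks such a gene throughout; its reads can be assigned to either gene. Library totals were between 10202584 and 32521626 estimated counts at 14-17 h and between 14472809 and 31783930 at 2-4 h, so the floor of 3 counts lies between 0.0922 and 0.294 CPM (a count scaled to the library total). Libraries of 1 stage correlated at 0.969 to 0.990 on log2 CPM, and libraries of different stages at 0.454 to 0.553. The first principal component, which separated the stages, held 95.6% of the variance. The share of counts in mitochondrial genes was 7.59 ± 1.16% at 14-17 h and 8.41 ± 1.47% at 2-4 h (mean ± SD; two-sided exact permutation test, p = 0.393). Marker genes of adult tissues were present in different amounts: 12 genes of the male reproductive tract summed to 0.954 to 1.54 CPM at 14-17 h and 0.389 to 0.554 CPM at 2-4 h, 15 eggshell genes to 0.574 to 1.18 CPM at 14-17 h and 1.17 to 1.46 CPM at 2-4 h, and 3 yolk protein genes to 1.31 to 2.20 CPM at 14-17 h and 0.69 to 8.54 CPM at 2-4 h, where replicate 1 was the highest. The sum over 11 photoreceptor genes was far larger, at 77.0 to 83.6 CPM at 14-17 h and 40.4 to 42.2 CPM at 2-4 h. Whether these genes are confined to the adult eye was not tested, so their sum is no measure of adult tissue.

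Some libraries stood apart from their group and are named beside the results they touch. At 14-17 h, replicate 2 held small amounts of transcripts that are abundant at 2-4 h, and replicates 5 and 6, the shallowest libraries, held more of several maternal transcripts than replicates 1, 2 and 3. At 2-4 h, replicate 1 held more transcripts of the older stage than replicates 2 and 3.

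Of 11636 genes with enough counts to test, 10459 (89.9%) differed between the stages at an adjusted p under 0.05 (edgeR's quasi-likelihood test with Benjamini-Hochberg adjustment). At 14-17 h, 4867 genes (41.8%) were lower and 5592 (48.1%) higher than at 2-4 h, and the median log2 fold change over all genes tested was 0.18. All log2 fold changes are 14-17 h over 2-4 h. The gains were larger than the losses: 3176 genes (27.3%) were at least 8-fold higher and 851 (7.31%) at least 8-fold lower. The genes at least 8-fold higher held 33.5 ± 1.20% of all counts at 14-17 h and 0.65 ± 0.0753% at 2-4 h, while those at least 8-fold lower held 0.647 ± 0.103% at 14-17 h and 9.26 ± 0.0805% at 2-4 h. After all libraries were thinned to the smallest total, 10450 ± 63.2 genes reached 10 counts at 14-17 h and 8751 ± 95.5 at 2-4 h (two-sided exact permutation test, p = 0.0357, the smallest this design allows).

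Libraries of the stages did not overlap, 14-17 h below 2-4 h, for 41.3% of genes and, 14-17 h above, for 47.5%. Means below are ± SD over the 5 libraries at 14-17 h and the 3 at 2-4 h. The labels do not say whether replicates came from separate collections, so the p-values measure the spread between these libraries. In whole embryos, fewer cells of a type and less RNA per cell cannot be told apart. Counts were scaled between libraries, and no RNA amount per embryo entered the fit. Lower, higher, lost and gained are therefore relative to the other transcripts of a library. With 89.9% of genes called, a count of called members means little by itself: for each gene group below, the counts lower and higher stand against the 41.8% and 48.1% above, and its median log2 fold change against 0.18.

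**Figure D1:**
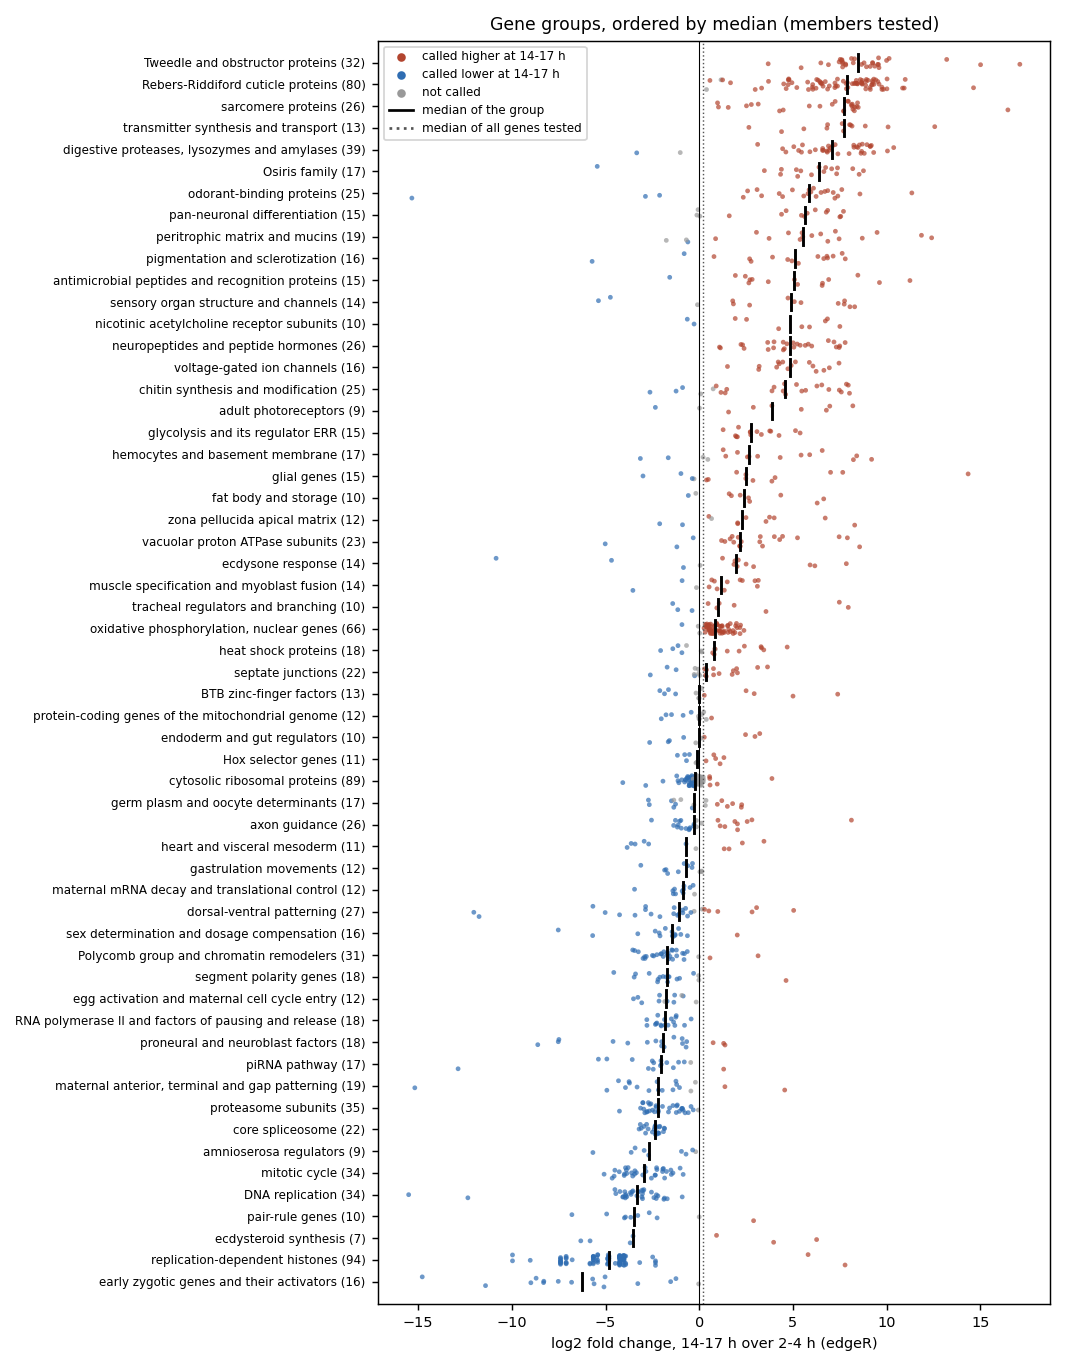
Log2 fold change (14-17 h over 2-4 h, horizontal axis) of each tested member of the gene groups, 1 row per group, ordered by the group's median (black bar); red points were called higher, blue points lower and grey points not called, and the dotted line is the median of all genes tested. Cuticle, sarcomere and transmitter groups lie at one end with medians of 7.70 to 8.47, and early zygotic and histone genes at the other with medians of -6.25 and -4.83.

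Maternal gene groups did not behave alike. Genes of egg activation, the process that restarts the cell cycle and translation in the laid egg, were mostly lower: 9 of 12 fell, none rose, and the median was -1.78 (-2.45 without replicate 2 at 14-17 h). gnu, a subunit of the PNG kinase that drives it, had 2.92, 13.7, 1.73, 9.11 and 2.25 TPM at 14-17 h, against 21.6, 23.7 and 33.4 TPM at 2-4 h, and plu, another subunit, had 8.79, 15.2, 15.1, 40.1 and 37.8 TPM at 14-17 h, against 72.3, 76.3 and 70.5 TPM at 2-4 h. Every 14-17 h library was below every 2-4 h library for both genes, but replicates 5 and 6 held the most plu RNA of the older group. smg, which binds maternal mRNAs and directs their destruction, had 64.3, 85.8, 67.2, 168 and 167 TPM at 14-17 h, against 217, 177 and 211 TPM at 2-4 h. The older libraries fell into a low set of 3 and, in replicates 5 and 6, a set just under the 2-4 h range, and the call (log2 fold change -0.86 ± 0.36 SE, adjusted p = 0.0426) was lost when any 1 of the 6 libraries numbered 1, 2 and 3 in either stage was left out (adjusted p = 0.0577 to 0.115). Of 12 genes of mRNA decay and translational control, 11 fell by a median of -0.89, among them brat† (12.3 ± 2.47 TPM at 14-17 h and 23.4 ± 0.715 TPM at 2-4 h); pum† did not pass the test (log2 fold change -0.26 ± 0.12 SE, adjusted p = 0.0698).

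Germ plasm and oocyte determinants showed no common direction: 6 of 17 fell, 6 rose and 5 were not called, with a median of -0.29. Of these genes 12 overlap another, and over the 5 that do not the median was 1.20. pgc†, which keeps germ cells transcriptionally silent, fell (6.0 ± 5.12 TPM at 14-17 h and 16.8 ± 1.1 TPM at 2-4 h, log2 fold change -1.49 ± 0.57 SE, adjusted p = 0.0299), a call lost without replicate 1 at 14-17 h (adjusted p = 0.0613) or without any 1 of the 2-4 h libraries (0.059 to 0.0726). osk†, the organiser of the germ plasm, had 2.0, 20.6, 2.14, 5.27 and 3.0 TPM at 14-17 h, against 9.7, 10.7 and 19 TPM at 2-4 h. The stages overlapped, since replicate 2 at 14-17 h was the highest of all 8 libraries, and osk† was not called (adjusted p = 0.21); without that replicate it was, at a log2 fold change of -2.15 (adjusted p = 0.000392).

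The piRNA pathway, which silences transposons in the germ line with small RNAs, was lower: 15 of 17 members fell, 1 rose, and the median was -2.07. piwi†, an Argonaute protein that binds piRNAs, had 4.45, 6.37, 4.37, 6.11 and 6.04 TPM at 14-17 h, against 21, 22.6 and 23.3 TPM at 2-4 h. The Argonaute gene aub† had 4.16, 6.95, 5.64, 10.4 and 11.2 TPM at 14-17 h, against 50.2, 46.6 and 50.8 TPM at 2-4 h, and AGO3 averaged 1.57 ± 0.0757 TPM at 14-17 h and 5.28 ± 0.582 TPM at 2-4 h. The stages did not overlap for these 3 genes, whose log2 fold changes were -2.03, -2.72 and -1.73; the counts of AGO3 were fractional in all 8 libraries, so its value is uncertain. qin†, a piRNA factor that lies over several other genes, was the exception, with 1.35 ± 0.665 TPM at 14-17 h and 0.543 ± 0.0406 TPM at 2-4 h (log2 fold change 1.30 ± 0.39 SE, adjusted p = 0.01).

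The earliest genes transcribed by the embryo were nearly gone at the older age. Of 16 early zygotic genes and their activators, 15 fell, 13 of them at least 8-fold, and the median was -6.25 (-7.33 without replicate 2 at 14-17 h), against 0.18 over all genes. halo (2L:1517533-1518148, dm6), which helps move lipid droplets in the young embryo, had 0.943, 12.4, 0.325, 0 and 1.05 TPM at 14-17 h, against 977, 1239 and 1186 TPM at 2-4 h. All older libraries lay far below the younger ones, and replicate 2 held most of the residue (log2 fold change -8.31 ± 0.67 SE, adjusted p = 9.66e-07). term behaved likewise, with 1.52, 7.45, 0.327, 0 and 0 TPM at 14-17 h, against 887, 955 and 990.1 TPM at 2-4 h. zld, the factor that opens the zygotic genome, fell less, to 26.2, 31, 25.1, 30.0 and 30.8 TPM at 14-17 h, against 90.7, 70.7 and 86.5 TPM at 2-4 h (log2 fold change -1.53 ± 0.14 SE, adjusted p = 1.97e-06). The furrow gene nullo† was listed at 0 in all 5 older libraries and averaged 50.8 ± 2.35 TPM at 2-4 h; its span lies inside another gene. Trl†, the gene of GAGA factor, was the member not called.

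Gap and terminal genes, which divide the body along its length, were lower in 15 of 19 cases, with a median of -2.18. hb (3R:8690980-8697822), the anterior gap gene, had 3.63, 7.22, 4.05, 6.34 and 5.71 TPM at 14-17 h, against 72.5, 69.4 and 74.8 TPM at 2-4 h. The stages were fully separate (log2 fold change -3.75 ± 0.21 SE, adjusted p = 7.43e-08). bcd, the maternal anterior determinant that activates hb, had 9.1, 14.7, 12.2, 40.4 and 38 TPM at 14-17 h, against 34.3, 25.6 and 32.7 TPM at 2-4 h. Replicates 5 and 6 at 14-17 h were the highest of all 8 libraries and replicates 1, 2 and 3 the lowest, so that the stages overlapped and bcd was not called (log2 fold change -0.45 ± 0.49 SE, adjusted p = 0.4). Between the deep libraries alone bcd fell (log2 fold change -1.54, adjusted p = 0.000415), while the shallow ones alone, with replicate 2 as the single library at 2-4 h, gave 0.65, a value with no replicate at that stage. The members that rose were tsl, the trigger of terminal signalling in the egg, with 22.2 ± 2.81 TPM at 14-17 h and 0.948 ± 0.0862 TPM at 2-4 h, and cnc†, a head selector and stress factor, with 9.31 ± 0.468 TPM at 14-17 h and 3.63 ± 0.0675 TPM at 2-4 h.

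Pair-rule genes, which set the periodic pattern of segments, fell in 8 of 10 cases by a median of -3.47. ftz (3R:6864324-6866244) had 2.01, 3.15, 0.629, 0.125 and 0.255 TPM at 14-17 h, against 179.5, 138 and 173 TPM at 2-4 h, and eve† had 6.13, 8.69, 4.8, 6.58 and 6.7 TPM at 14-17 h, against 94.4, 65.1 and 86.9 TPM at 2-4 h. No older library reached a younger one for either gene. hry did not differ detectably (57 ± 4.75 TPM at 14-17 h and 57.5 ± 1.93 TPM at 2-4 h; log2 fold change -0.01 ± 0.11 SE). ftz-f1†, a nuclear receptor that partners ftz in the young embryo and responds to ecdysone later, rose (65.1 ± 5.53 TPM at 14-17 h and 8.75 ± 0.646 TPM at 2-4 h, log2 fold change 2.90 ± 0.12 SE, adjusted p = 9.2e-09). Segment polarity genes, which hold segment borders, fell in 15 of 18 cases, with a median of -1.73. wg, the Wnt ligand, averaged 6.19 ± 0.776 TPM at 14-17 h and 19.6 ± 0.807 TPM at 2-4 h, hh, the Hedgehog ligand, 1.3 ± 0.211 TPM at 14-17 h and 5.01 ± 0.167 TPM at 2-4 h, and en, the posterior selector, 7.88 ± 1.08 TPM at 14-17 h and 34 ± 2.44 TPM at 2-4 h. H15, a T-box gene of the ventral embryo, was the one that rose (log2 fold change 4.63 ± 0.23 SE, adjusted p = 2.84e-08).

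Dorsal-ventral genes were split, with 19 of 27 lower, 6 higher and a median of -1.10. The mesoderm determinants fell: sna had 29.2, 37.2, 28.2, 25 and 23.3 TPM at 14-17 h, against 207, 197 and 226 TPM at 2-4 h, and twi† averaged 0.666 ± 0.234 TPM at 14-17 h and 7.23 ± 0.841 TPM at 2-4 h. The dorsal factor zen, which specifies the amnioserosa, had 1.53, 5.21, 0.538, 0.954 and 0.775 TPM at 14-17 h, against 95.2, 104 and 109 TPM at 2-4 h. The stages did not overlap for these 3 genes, and replicate 2 was the highest older library for sna and zen. dl, the maternal Rel factor at the head of the pathway, was listed with 19.4, 18.8, 19.6, 21.7 and 19.2 TPM at 14-17 h, against 0.618, 0.378 and 0.752 TPM at 2-4 h, the reverse of its targets. Its estimated counts were fractional in 7 of the 8 libraries, which means that reads were shared out between genes, so its direction is uncertain. vnd†, pip† and spz† also rose and all overlap another gene. Of 9 genes of the amnioserosa, the membrane that covers the yolk until dorsal closure, 8 fell (median -2.70), among them ush† (2.32 ± 0.21 TPM at 14-17 h and 4.5 ± 0.222 TPM at 2-4 h). The member peb was not called (20.6 ± 1.08 TPM at 14-17 h and 23.5 ± 2.85 TPM at 2-4 h). Some genes that fell here, zen among them, are also counted in the dorsal-ventral group or in the heart and visceral mesoderm group below.

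Genes of the gastrulation movements fell in 9 of 12 cases and none rose (median -0.71). mthl1†, the receptor for the Fog signal, averaged 11 ± 2.11 TPM at 14-17 h and 19.3 ± 0.391 TPM at 2-4 h, but its ligand fog† (5.75 ± 0.308 TPM at 14-17 h and 5.23 ± 0.237 TPM at 2-4 h, adjusted p = 0.159) and T48† (2.65 ± 0.206 TPM at 14-17 h and 2.43 ± 0.283 TPM at 2-4 h, adjusted p = 0.349) were not called. Hox selector genes and their partners had the median nearest 0 among the patterning groups, with 4 of 11 lower, 5 higher and a median of -0.13. Ubx had 1.85, 1.9, 1.53, 1.48 and 1.65 TPM at 14-17 h, against 1.69, 2.11 and 1.77 TPM at 2-4 h, and its stages overlapped (adjusted p = 0.187). Antp† was also not called (1.73 ± 0.204 TPM at 14-17 h and 1.97 ± 0.0717 TPM at 2-4 h), and Abd-B† rose slightly (3.54 ± 0.212 TPM at 14-17 h and 2.77 ± 0.14 TPM at 2-4 h, log2 fold change 0.36 ± 0.09 SE, adjusted p = 0.00396). The partners exd (118 ± 4.94 TPM at 14-17 h and 268 ± 12.7 TPM at 2-4 h) and hth† (6.23 ± 0.808 TPM at 14-17 h and 10.8 ± 0.458 TPM at 2-4 h), which help Hox proteins bind DNA, both fell.

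Sex determination and dosage compensation genes fell in 15 of 16 cases (median -1.45). sisA, an X-linked gene whose early dose helps to set sex, averaged 2.71 ± 2.21 TPM at 14-17 h and 159 ± 4.16 TPM at 2-4 h, and sc†, another such gene, 0.133 ± 0.212 TPM at 14-17 h and 25.5 ± 1.1 TPM at 2-4 h. Sxl†, the switch they act on, fell less (34.9 ± 4.77 TPM at 14-17 h and 69.5 ± 4.24 TPM at 2-4 h, log2 fold change -0.99 ± 0.10 SE, adjusted p = 5.88e-06). The non-coding lncRNA:roX2, which guides the dosage compensation complex on the male X, was the only member that rose (19.5 ± 2.71 TPM at 14-17 h and 4.88 ± 0.81 TPM at 2-4 h).

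**Figure D2:**
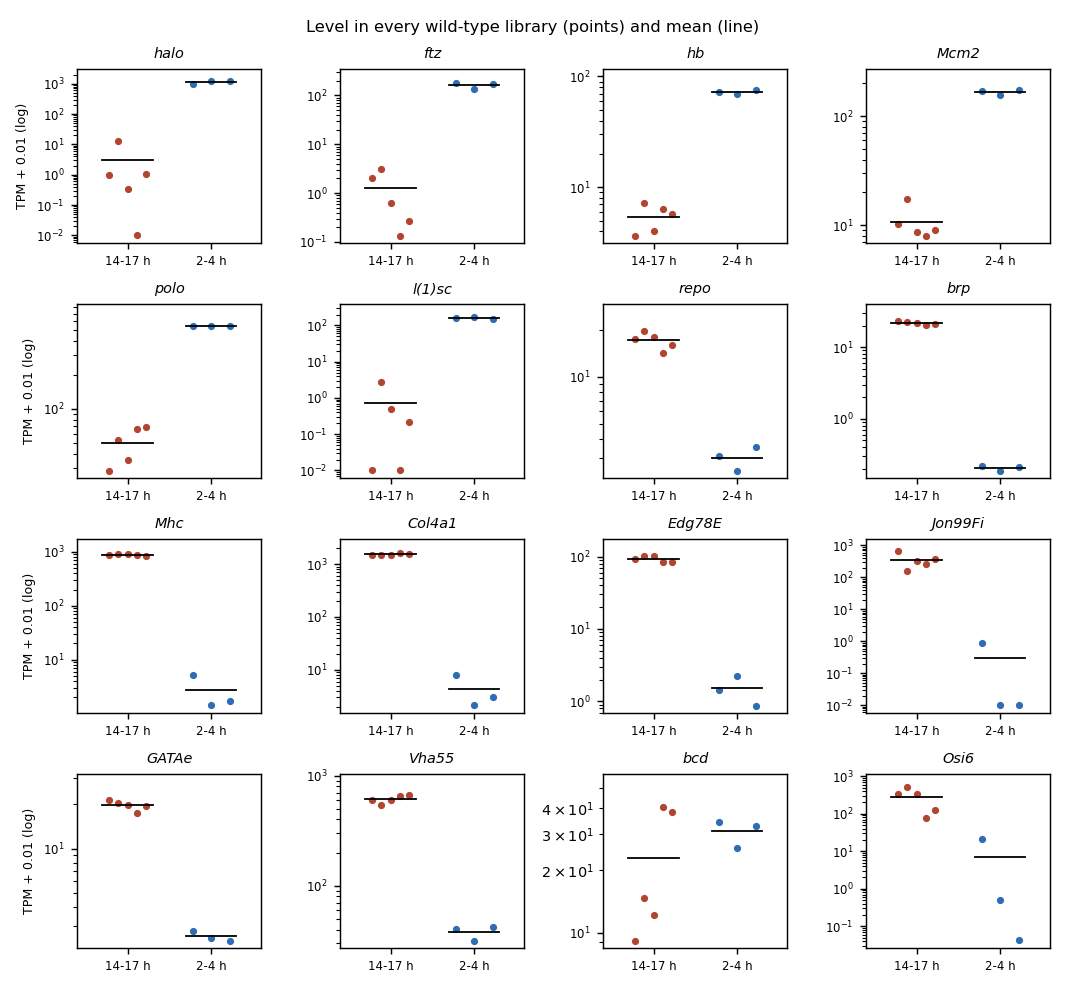
TPM + 0.01 on a log axis in every library for 16 named genes, with 14-17 h in red on the left, 2-4 h in blue on the right and the mean as a line. The stages are separate for every gene shown except bcd, and for halo, l(1)sc and Mcm2 a single library, replicate 2, lies above the others at 14-17 h.

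Cell division genes fell without exception among those tested. All 34 tested genes of the mitotic cycle fell, 17 of them at least 8-fold, with a median of -2.96, and all 34 DNA replication genes fell, 23 of them at least 8-fold, with a median of -3.30. Over members that overlap no other gene the medians were -2.79 and -3.06. The replication genes include Cdc6† and Cdc45†, which overlap another gene and were listed at 0 in every 14-17 h library. Their losses are therefore uncertain. stg, the Cdc25 phosphatase that triggers mitosis in the embryo, had 26.2, 43.5, 25.1, 27.4 and 28.9 TPM at 14-17 h, against 158, 131 and 152 TPM at 2-4 h. polo, a mitotic kinase, had 28.1, 52.4, 35, 66.4 and 68.5 TPM at 14-17 h, against 544, 545 and 550.0 TPM at 2-4 h. CycB, the mitotic cyclin, had 146, 246, 179.5, 492 and 517 TPM at 14-17 h, against 1257, 1188 and 1296 TPM at 2-4 h. No older library reached a younger one for these genes, and replicates 5 and 6 held the most polo and CycB RNA of the older group. Among replication genes, Mcm2, a subunit of the replicative helicase, had 10.2, 17.4, 8.75, 7.99 and 9.08 TPM at 14-17 h, against 169.8, 158 and 172 TPM at 2-4 h, and PCNA, the polymerase clamp, had 55.2, 61.7, 42.9, 37.6 and 42.2 TPM at 14-17 h, against 821, 806 and 834 TPM at 2-4 h (log2 fold change -4.09 ± 0.14 SE, adjusted p = 2.9e-09). The mitotic genes together held 0.177 ± 0.0587% of all counts at 14-17 h and 1.11 ± 0.0245% at 2-4 h.

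Replication-dependent histone genes, which occur in many near-identical copies, are reported as a sum because reads cannot be placed on single copies. They totalled 27.7 to 85.2 CPM at 14-17 h, the highest value being replicate 2, and 1054 to 1138 CPM at 2-4 h. Of 94 tested copies 92 were lower, with a median of -4.83 (-5.60 without replicate 2 at 14-17 h), and the 2 listed as higher, His2A:CG33808† and His4:CG33907, had fractional counts. Some copies have identical estimates, so these are not counts of separately measured genes. The 851 genes at least 8-fold lower include 88 of these copies. Histone mRNA mostly lacks a poly(A) tail, so polyadenylated libraries hold little of it.

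Most genes of the general gene expression machinery fell. All 22 spliceosome genes were lower (median -2.35), as were all 18 genes of RNA polymerase II and its pausing and release factors (median -1.85, members from -2.80 to -0.44). SmB, a core protein of spliceosomal particles, had 37, 43.4, 32.8, 34.2 and 37.1 TPM at 14-17 h, against 324, 295 and 331 TPM at 2-4 h. Prp8†, the scaffold of the catalytic centre, averaged 37 ± 4.53 TPM at 14-17 h and 189 ± 8.45 TPM at 2-4 h. Spt5, which holds and then accompanies the polymerase, averaged 48.6 ± 6.86 TPM at 14-17 h and 177 ± 1.73 TPM at 2-4 h, and Nelf-A†, a subunit of the pausing complex, 25.3 ± 2.06 TPM at 14-17 h and 59.5 ± 4.61 TPM at 2-4 h. No library of one stage entered the range of the other for these genes. Nelf-E† averaged 17.7 ± 1.32 TPM at 14-17 h and 49.9 ± 0.791 TPM at 2-4 h. Among 31 Polycomb and chromatin remodelling genes, 28 fell (median -1.70, members from -3.55 to 3.14). Pc†, the chromodomain subunit of Polycomb repressive complex 1, averaged 7.58 ± 1.18 TPM at 14-17 h and 83.3 ± 1.86 TPM at 2-4 h, the methyltransferase E(z)† 12.5 ± 1.29 TPM at 14-17 h and 46.4 ± 2.11 TPM at 2-4 h, and the remodeller brm† 41.8 ± 7.85 TPM at 14-17 h and 139.7 ± 5.47 TPM at 2-4 h. Su(z)2, a Polycomb group relative, rose, at 14.9, 14.8, 13.3, 12.8 and 13.1 TPM at 14-17 h, against 1.46, 1.69 and 1.58 TPM at 2-4 h; all older libraries were above the younger ones, and its counts were fractional in 7 of the 8. Nurf-38, a subunit of a nucleosome remodelling complex, also rose (137 ± 15.7 TPM at 14-17 h and 92.6 ± 2.3 TPM at 2-4 h).

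Proteasome subunits fell in 34 of 35 cases (median -2.19), and the remaining one, Prosalpha1†, overlaps another gene and had fractional counts. Prosbeta1† had 62.5, 70.6, 61.2, 61.7 and 62.7 TPM at 14-17 h, against 446, 395 and 481 TPM at 2-4 h, a separation far wider than the spread within either stage. Cytosolic ribosomal proteins moved little: 38 of 89 fell, 5 rose, 46 were not called and the median was -0.21, and the group held 8.77 ± 0.458% of counts at 14-17 h and 10.3 ± 0.564% at 2-4 h. The count lower depended on the libraries used, between 24 without replicate 1 or 3 at 2-4 h and 57 without replicate 2. RpL32, often used as a reference gene, averaged 2616 ± 252 TPM at 14-17 h and 2951 ± 198 TPM at 2-4 h (adjusted p = 0.159), and RpS3 fell (2177 ± 179 TPM at 14-17 h and 2914 ± 201 TPM at 2-4 h, log2 fold change -0.42 ± 0.11 SE, adjusted p = 0.0037). RpLP0 rose instead (2217 ± 76.1 TPM at 14-17 h and 1513 ± 93.1 TPM at 2-4 h, log2 fold change 0.56 ± 0.10 SE, adjusted p = 0.00052).

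**Figure D3:**
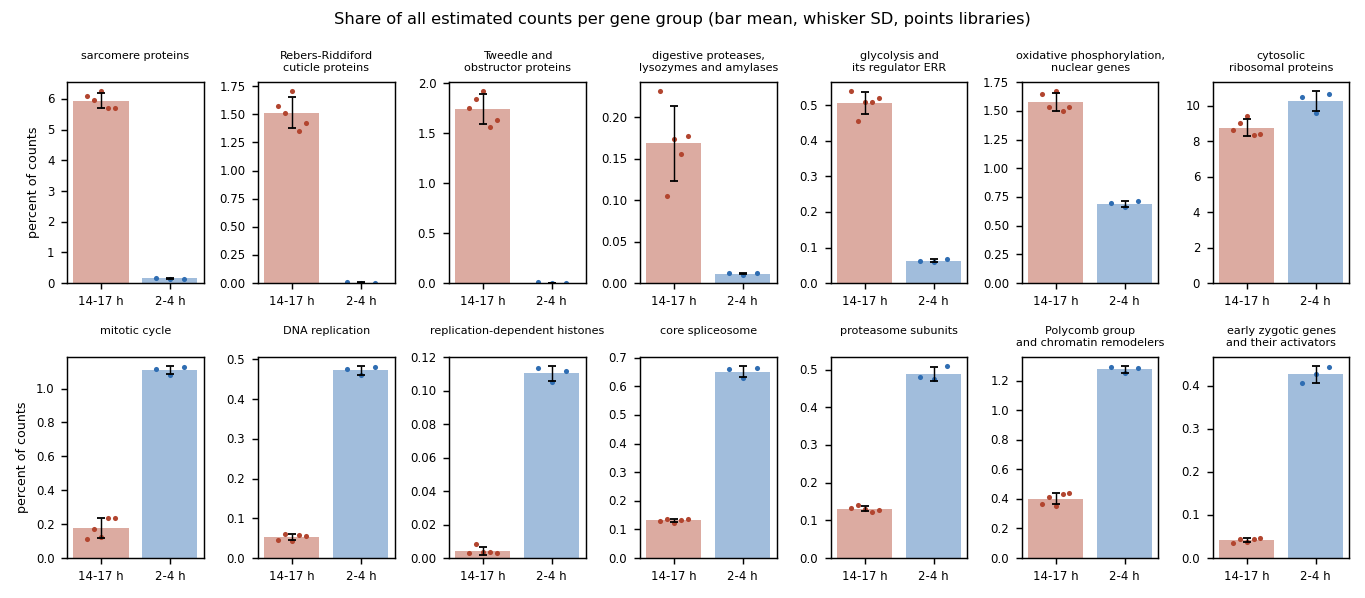
Percent of all estimated counts held by 14 gene groups in each library (points), with bars for the mean and whiskers for the SD, 14-17 h on the left and 2-4 h on the right of each panel. The upper row runs from groups that are almost confined to 14-17 h, such as the sarcomere at 5.94% against 0.151% of counts, to ribosomal proteins, and the lower row shows groups that take a larger share at 2-4 h.

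In the nervous system, most genes of progenitors fell and most genes of working neurons rose. Of 18 proneural and neuroblast factors, which select and maintain neural stem cells, 15 fell (median -1.94). The proneural gene l(1)sc† had 0, 2.76, 0.496, 0 and 0.213 TPM at 14-17 h, against 156, 176 and 153 TPM at 2-4 h. Older libraries held almost none of it, and most of the residue was in replicate 2. wor averaged 6.96 ± 2.33 TPM at 14-17 h and 26.2 ± 2.53 TPM at 2-4 h, and ase† 3.72 ± 1.56 TPM at 14-17 h and 15.7 ± 2.62 TPM at 2-4 h. The members that rose, nub†, svp† and insc†, overlap another gene; svp†, a temporal factor of neuroblasts that is also used in heart and fat body, averaged 2.78 ± 0.322 TPM at 14-17 h and 1.14 ± 0.0701 TPM at 2-4 h.

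Of 15 pan-neuronal differentiation genes, 12 rose and none fell, with a median of 5.62. brp (2R:9503765-9541565), a scaffold of the presynaptic active zone, had 23.5, 22.2, 21.5, 20.6 and 20.8 TPM at 14-17 h, against 0.206, 0.178 and 0.203 TPM at 2-4 h. nSyb, the vesicle protein of synaptic release, had 99.6, 86.8, 90.1, 91.8 and 96.8 TPM at 14-17 h, against 1.4, 1.25 and 1.16 TPM at 2-4 h. The older libraries were tightly grouped and far above the younger ones for both genes. elav†, the usual neuronal marker, did not follow, with 31.3, 33.5, 25.9, 25.3 and 23 TPM at 14-17 h, against 30.0, 30.9 and 30.7 TPM at 2-4 h (adjusted p = 0.295). Its stages overlapped; it overlaps arg†, and its counts were fractional in all 8 libraries. The other members not called were Syx1A† (79.4 ± 4.67 TPM at 14-17 h and 78.2 ± 1.47 TPM at 2-4 h) and Snap25† (0.823 ± 0.0847 TPM at 14-17 h and 0.865 ± 0.0249 TPM at 2-4 h), both of synaptic release.

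Transmitter genes rose in all 13 cases, with a median of 7.70 (7.63 with the genes that were at 0 set to their lower bound). VGlut†, the vesicular glutamate transporter, averaged 18.1 ± 0.434 TPM at 14-17 h and 0.0567 ± 0.0278 TPM at 2-4 h (log2 fold change 8.15 ± 0.22 SE, adjusted p = 8.77e-10). Gad1†, which makes GABA, averaged 27.8 ± 3.0 TPM at 14-17 h and 0.10 ± 0.0379 TPM at 2-4 h, and ChAT†, which makes acetylcholine, 6.26 ± 0.36 TPM at 14-17 h and 0.125 ± 0.0399 TPM at 2-4 h. All 16 voltage-gated channel genes rose (median 4.82), including the sodium channel para† (11.2 ± 1.92 TPM at 14-17 h and 0.111 ± 0.0101 TPM at 2-4 h), the calcium channel cac (8.71 ± 0.694 TPM at 14-17 h and 0.452 ± 0.0237 TPM at 2-4 h) and the potassium channel Sh† (4.03 ± 0.33 TPM at 14-17 h and 0.0594 ± 0.0214 TPM at 2-4 h). Among nicotinic acetylcholine receptor subunits, 8 of 10 rose (median 4.85), among them nAChRbeta1 (40.6 ± 3.3 TPM at 14-17 h and 0.332 ± 0.107 TPM at 2-4 h) and nAChRalpha1† (3.96 ± 0.463 TPM at 14-17 h and 0.0339 ± 0.0237 TPM at 2-4 h). The alpha-type subunits nAChRalpha4 (3.11 ± 0.0888 TPM at 14-17 h and 4.9 ± 0.411 TPM at 2-4 h) and nAChRalpha3† (0.927 ± 0.0478 TPM at 14-17 h and 1.14 ± 0.156 TPM at 2-4 h) fell slightly, the second with overlapping stages.

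Neuropeptide and peptide hormone genes rose in all 26 tested cases (median 4.84, or 4.68 with genes at 0 set to their bound). Akh, the adipokinetic hormone made in the corpora cardiaca, had 17.3, 14.6, 15.4, 12.3 and 17.3 TPM at 14-17 h, against 0.553, 0 and 0.54 TPM at 2-4 h. Nplp1 averaged 13.8 ± 0.404 TPM at 14-17 h and 0.627 ± 0.0624 TPM at 2-4 h, and the diuretic hormone Dh44† 4.09 ± 0.642 TPM at 14-17 h and 0.0756 ± 0.0303 TPM at 2-4 h. Every older library was above every younger one for these 3 genes. Of 15 glial genes, 11 rose and 3 fell (median 2.48). repo† (3R:18236192-18239602), the transcription factor of lateral glia, had 17.6, 19.7, 18, 14.2 and 16 TPM at 14-17 h, against 3.07, 2.47 and 3.52 TPM at 2-4 h. moody†, which helps seal the blood-brain barrier, averaged 24 ± 1.6 TPM at 14-17 h and 1.64 ± 0.307 TPM at 2-4 h. gcm†, the transient switch that starts glial fate, fell in every older library, with 3.8, 5.37, 3.57, 2.85 and 3.0 TPM at 14-17 h, against 32, 28.3 and 31.4 TPM at 2-4 h (log2 fold change -3.01 ± 0.17 SE, adjusted p = 7.83e-08).

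Axon guidance genes had no common direction, with 14 of 26 lower, 9 higher and a median of -0.29. The midline repellent sli† fell (15.2 ± 1.94 TPM at 14-17 h and 31.6 ± 1.42 TPM at 2-4 h, log2 fold change -1.05 ± 0.11 SE, adjusted p = 6.48e-06), as did the Netrin receptor fra† (9.31 ± 0.84 TPM at 14-17 h and 22.6 ± 0.302 TPM at 2-4 h). Receptors of the repellent split: robo1 was not called (32.3 ± 4.01 TPM at 14-17 h and 30.1 ± 1.54 TPM at 2-4 h, adjusted p = 0.26) and robo3 had 6.85, 6.84, 6.34, 5.71 and 5.99 TPM at 14-17 h, against 0.0374, 0.0194 and 0.00912 TPM at 2-4 h, higher in every older library. Sensory organ genes rose in 11 of 14 cases (median 4.90). nompC, a mechanosensory channel, averaged 4.47 ± 0.426 TPM at 14-17 h and 0.14 ± 0.0474 TPM at 2-4 h, and nompA†, which links sensory dendrites to the cuticle, 25.1 ± 2.48 TPM at 14-17 h and 0.0878 ± 0.0547 TPM at 2-4 h. The proneural genes ato and amos, which select sensory precursors, were the members that fell. ato averaged 0.516 ± 0.241 TPM at 14-17 h and 14.9 ± 0.444 TPM at 2-4 h and amos 0.605 ± 1.02 TPM at 14-17 h and 30.3 ± 3.15 TPM at 2-4 h.

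Muscle contraction genes made up the largest gain in share of counts among the 14 groups whose share was taken. All 26 tested sarcomere genes rose, 21 of them at least 8-fold, with a median of 7.71. Together they held 5.94 ± 0.247% of counts at 14-17 h and 0.151 ± 0.0165% at 2-4 h. Mhc (2L:16766566-16788766), the myosin heavy chain, had 877, 916, 929.5, 885 and 857 TPM at 14-17 h, against 5.26, 1.41 and 1.7 TPM at 2-4 h. Act57B†, the main larval muscle actin, had 15170.0, 14620.0, 15220.0, 14650.0 and 15210.0 TPM at 14-17 h, against 149, 59.2 and 116 TPM at 2-4 h. bt, a giant elastic protein of the thick filament, had 303, 295, 278, 216 and 206 TPM at 14-17 h, against 1.34, 0.623 and 0.499 TPM at 2-4 h. The older libraries were far above the younger ones, among which replicate 1 was the highest for each gene.

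Genes that specify muscle or fuse myoblasts changed much less, with 11 of 14 higher, 2 lower and a median of 1.14. Mef2, the activator of muscle genes, averaged 8.45 ± 0.352 TPM at 14-17 h and 5.35 ± 0.34 TPM at 2-4 h (log2 fold change 0.66 ± 0.09 SE, adjusted p = 6.25e-05), and sns†, a fusion receptor, 3.49 ± 0.388 TPM at 14-17 h and 1.81 ± 0.195 TPM at 2-4 h. nau†, the fly MyoD relative, averaged 1.89 ± 0.287 TPM at 14-17 h and 0.387 ± 0.0749 TPM at 2-4 h. lmd, which acts upstream of fusion, fell (0.998 ± 0.444 TPM at 14-17 h and 11.8 ± 2.16 TPM at 2-4 h, log2 fold change -3.54 ± 0.28 SE, adjusted p = 8.56e-07). In the heart and visceral mesoderm 6 of 11 genes fell and 4 rose (median -0.71). tin, the heart and mesoderm homeobox gene, had 1.8, 3.15, 2.33, 1.24 and 1.65 TPM at 14-17 h, against 31.3, 28.9 and 32 TPM at 2-4 h, with the stages fully separate. Hand, a later factor of heart and associated cells, moved the other way, with 13.3, 12.4, 12.2, 8.35 and 9.89 TPM at 14-17 h, against 0.893, 1.55 and 0.814 TPM at 2-4 h. Visceral genes bin, jeb and Alk also rose, and bap was not called (10.9 ± 1.9 TPM at 14-17 h and 12.5 ± 0.732 TPM at 2-4 h).

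Blood cell and basement membrane genes rose in 13 of 17 cases (median 2.65). Col4a1 (2L:5029609-5037279), a collagen of basement membranes made by hemocytes and fat body, had 1521, 1494, 1467, 1591 and 1574 TPM at 14-17 h, against 8.01, 2.1 and 3.06 TPM at 2-4 h. Older libraries agreed within 10% of each other and were all above the younger ones, where replicate 1 was the highest. Pxn†, a secreted peroxidase of hemocytes, averaged 8.5 ± 0.519 TPM at 14-17 h and 1.43 ± 0.182 TPM at 2-4 h. srp†, the GATA factor that founds blood and fat body, fell (8.9, 9.45, 8.64, 7.25 and 7.97 TPM at 14-17 h, against 28.1, 24.8 and 27.2 TPM at 2-4 h), as did PPO3 (0.242 ± 0.0832 TPM at 14-17 h and 2.27 ± 0.224 TPM at 2-4 h). Of 10 tested fat body and storage genes, 8 rose (median 2.41). apolpp†, the main lipoprotein of the hemolymph, averaged 267 ± 35 TPM at 14-17 h and 43.4 ± 1.91 TPM at 2-4 h, whereas the lipase bmm fell (19.9 ± 1.86 TPM at 14-17 h and 30.2 ± 0.949 TPM at 2-4 h). The larval storage protein Lsp1beta stayed at or below 0.168 TPM in all 8 libraries and was not tested.

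Of 36 antimicrobial peptide, recognition and signalling genes of immunity, 15 were tested, and 14 of these rose, with a median of 5.08 (4.16 with genes at 0 set to their bound, and 3.79 without replicate 1, 3.86 without replicate 3 and 4.22 without replicate 2 at 2-4 h). The 14 are peptidoglycan recognition proteins, thioester proteins and the Rel factors Dif† and Rel†. Of the antimicrobial peptide genes only Drs was abundant enough to test. PGRP-LC, a receptor for bacterial peptidoglycan, had 7.24, 7.12, 7.8, 7.43 and 6.89 TPM at 14-17 h, against 0.168, 0.217 and 0.258 TPM at 2-4 h. PGRP-SC2 averaged 19.2 ± 7.23 TPM at 14-17 h and 3.18 ± 1.01 TPM at 2-4 h. Drs, an antifungal peptide gene, fell (2.55 ± 1.87 TPM at 14-17 h and 8.58 ± 2.89 TPM at 2-4 h, log2 fold change -1.58 ± 0.50 SE, adjusted p = 0.0124); its call was lost with limma on log2(TPM + 0.1) (adjusted p = 0.0859) and between the shallow libraries (0.126, with 1 library at 2-4 h).

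In the gut, the regulators split and most products rose. Of 10 endoderm and gut regulators, 4 fell and 4 rose (median -0.04). GATAe (3R:16009105-16019133), which maintains the endoderm and midgut, had 21.5, 20.4, 19.8, 17.6 and 19.4 TPM at 14-17 h, against 2.74, 2.47 and 2.35 TPM at 2-4 h. fkh, a forkhead factor of fore- and hindgut and salivary gland, averaged 46.2 ± 3.38 TPM at 14-17 h and 82.7 ± 3.1 TPM at 2-4 h, and byn†, the hindgut T-box factor, 2.83 ± 0.312 TPM at 14-17 h and 18 ± 0.775 TPM at 2-4 h. Both of these fell, and no library of one stage entered the range of the other. Of 39 tested digestive proteases, lysozymes and amylases, 37 rose at least 8-fold (median 7.10, 6.93 with genes at 0 set to their bound, and 8.13 without replicate 3 at 2-4 h). Jon99Fi, a serine protease, had 672, 159, 335, 260.3 and 379.9 TPM at 14-17 h, against 0.864, 0 and 0 TPM at 2-4 h. Jon25Bii had 254, 81.4, 144, 118 and 152 TPM at 14-17 h, against 0.43, 0 and 0.63 TPM at 2-4 h. Both varied widely among the older libraries, with replicate 1 highest and replicate 2 lowest, and none of these overlapped the younger ones. The maltase gene Mal-A5 was the only one that fell (11.5 ± 1.54 TPM at 14-17 h and 116 ± 9.05 TPM at 2-4 h, log2 fold change -3.34 ± 0.14 SE, adjusted p = 8.93e-09).

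Peritrophic matrix and mucin genes, which line the gut, rose in 16 of 19 cases (median 5.52, or 6.41 without replicate 1 at 2-4 h). Peritrophin-15a had 195, 41.1, 72.7, 59.3 and 61.2 TPM at 14-17 h, against 0.641, 0 and 0.626 TPM at 2-4 h, and Peritrophin-A averaged 58 ± 6.94 TPM at 14-17 h and 0.82 ± 0.457 TPM at 2-4 h. Replicate 1 stood above the other older libraries for the first and not for the second. Muc14A was listed lower (0.247 ± 0.023 TPM at 14-17 h and 0.389 ± 0.165 TPM at 2-4 h), but its stages overlapped and the call was lost under limma, thinning, the deep libraries alone and without replicate 2 at 2-4 h.

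Cuticle genes of the epidermis had the highest medians of all groups examined. Of 80 tested Rebers-Riddiford cuticle protein genes, 78 rose and none fell, with a median of 7.88 (7.76 with genes at 0 set to their bound). All 32 Tweedle and obstructor genes rose (median 8.47, or 9.69 without replicate 1 at 2-4 h), each at least 8-fold. The Rebers-Riddiford genes held 1.51 ± 0.137% of counts at 14-17 h and 0.00465 ± 0.00217% at 2-4 h, and the Tweedle and obstructor genes 1.74 ± 0.147% at 14-17 h and 0.00335 ± 0.00264% at 2-4 h. TwdlM had 10750.0, 11040.0, 12150.0, 9153 and 9802 TPM at 14-17 h, against 26.2, 17.2 and 0 TPM at 2-4 h. Cpr65Ea had 12100.0, 13220.0, 13210.0, 7943 and 8143 TPM at 14-17 h, against 22.2, 16.8 and 0 TPM at 2-4 h. Edg78E had 92.8, 100.4, 102, 84.6 and 84.4 TPM at 14-17 h, against 1.42, 2.22 and 0.866 TPM at 2-4 h. No younger library came near an older one; replicates 5 and 6 were the lowest older libraries for Cpr65Ea. The obstructor protein gene obst-A, whose product binds chitin, averaged 409 ± 62.6 TPM at 14-17 h and 1.97 ± 0.948 TPM at 2-4 h, and Gasp, a related tracheal chitin-binding gene, 189.7 ± 32.3 TPM at 14-17 h and 1.02 ± 0.38 TPM at 2-4 h.

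Chitin synthesis and modification genes rose in 20 of 25 cases (median 4.55). kkv†, the chitin synthase of epidermis and trachea, had 25.9, 27.1, 24.4, 22 and 21.5 TPM at 14-17 h, against 1.57, 1.48 and 1.5 TPM at 2-4 h. knk†, which protects and organises chitin, averaged 14.1 ± 1.02 TPM at 14-17 h and 0.284 ± 0.169 TPM at 2-4 h, and the deacetylase serp 283 ± 22.8 TPM at 14-17 h and 1.09 ± 0.824 TPM at 2-4 h. The 3 members that fell were the chitinase genes Cht8† (0.264 ± 0.133 TPM at 14-17 h and 1.85 ± 0.169 TPM at 2-4 h) and Cht11 (6.13 ± 1.33 TPM at 14-17 h and 14.2 ± 1.0 TPM at 2-4 h) and nst (50.6 ± 3.27 TPM at 14-17 h and 94.2 ± 4.79 TPM at 2-4 h), which acts in the sugar nucleotide pathway that feeds glycosylation as well as chitin. Zona pellucida proteins of the apical matrix rose in 9 of 12 cases (median 2.27), among them dpy† (11.6 ± 2.26 TPM at 14-17 h and 0.858 ± 0.0798 TPM at 2-4 h) and pio (19.9 ± 1.35 TPM at 14-17 h and 1.69 ± 0.0751 TPM at 2-4 h). trn, a leucine-rich repeat protein placed in that group, fell (49.2 ± 6.44 TPM at 14-17 h and 214 ± 7.58 TPM at 2-4 h), and neo was listed lower with overlapping stages (2.16 ± 1.03 TPM at 14-17 h and 3.98 ± 1.15 TPM at 2-4 h, adjusted p = 0.0427), a call that was lost under limma, DESeq2, RLE and total-count scaling and without replicate 1 or 3 of either stage. Pigmentation and sclerotisation genes rose in 14 of 16 cases (median 5.12, or 5.83 without replicate 1 at 2-4 h). Ddc†, whose product makes dopamine for cuticle and neurons, had 88.5, 92.5, 109, 79.8 and 82.1 TPM at 14-17 h, against 0.556, 0.429 and 0.362 TPM at 2-4 h. ple, the enzyme before it, had 15.1, 15.9, 14.6, 31.3 and 27.5 TPM at 14-17 h, against 0.363, 0.0781 and 0.0611 TPM at 2-4 h, and y† averaged 63.6 ± 3.77 TPM at 14-17 h and 0.477 ± 0.384 TPM at 2-4 h. The older libraries were above all younger ones for these 3, and ple was higher in replicates 5 and 6 than in replicates 1, 2 and 3 at 14-17 h. yellow-e3 fell instead, with 1.42 ± 0.925 TPM at 14-17 h and 81.7 ± 2.08 TPM at 2-4 h.

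Genes of tracheal regulation and branching rose in 7 of 10 cases (median 1.0). Those that rose include the deacetylase gene serp and the zona pellucida gene pio, which are also counted in the groups above. trh†, the founder gene of the tracheae, averaged 6.14 ± 0.362 TPM at 14-17 h and 2.96 ± 0.132 TPM at 2-4 h (log2 fold change 1.06 ± 0.08 SE, adjusted p = 3.6e-07), the FGF ligand bnl† 1.81 ± 0.298 TPM at 14-17 h and 1.31 ± 0.0832 TPM at 2-4 h, and its receptor btl†, which fell, 4.81 ± 0.928 TPM at 14-17 h and 10.8 ± 0.254 TPM at 2-4 h. The Osiris family, a cluster of genes used in tracheal and cuticular cells, rose in 16 of 17 tested cases with a median of 6.39, or 5.42 with genes at 0 set to their bound. The median rested on replicate 1 at 2-4 h: it was 9.66 without that library and 5.73 without replicate 3 at 2-4 h. Osi6 had 337, 528, 337, 76.8 and 129 TPM at 14-17 h, against 20.7, 0.478 and 0.0321 TPM at 2-4 h, and Osi7 had 266, 399, 251, 65.9 and 108 TPM at 14-17 h, against 15.2, 0.25 and 0.0878 TPM at 2-4 h. Both stages were uneven: replicates 5 and 6 were the lowest older libraries, and replicate 1 was far above the other younger ones. Osi9, at 117, 141, 83.8, 95.2 and 78.5 TPM at 14-17 h, against 2.6, 0 and 0 TPM at 2-4 h, varied less at 14-17 h. Septate junction genes, which seal epithelia, rose in 13 of 22 cases and fell in 4 (median 0.35); cora averaged 134 ± 4.28 TPM at 14-17 h and 10.7 ± 1.32 TPM at 2-4 h, Nrx-IV† 50.8 ± 3.51 TPM at 14-17 h and 24.5 ± 0.334 TPM at 2-4 h and sinu 138 ± 8.89 TPM at 14-17 h and 81.9 ± 1.79 TPM at 2-4 h, and Lac was the largest decrease among the 4 (28.5 ± 2.47 TPM at 14-17 h and 175 ± 2.5 TPM at 2-4 h).

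Ecdysteroid genes did not move together. Among 7 biosynthesis and turnover genes 4 fell and 3 rose, with a median of -3.54. All 4 that fell overlap another gene, and the 3 that rose do not. The median over these 3 was 3.97, which is the value of spok alone. As given above, spok is among the genes with fractional counts, so this figure is uncertain. dib†, a late hydroxylase of the pathway, had 1.13, 2.68, 0.769, 0.533 and 0.542 TPM at 14-17 h, against 70.8, 72.2 and 70.7 TPM at 2-4 h. sad† averaged 1.31 ± 0.298 TPM at 14-17 h and 16.5 ± 1.81 TPM at 2-4 h. Cyp18a1, which inactivates ecdysone, rose to 101, 118, 107, 79.6 and 84.2 TPM at 14-17 h, against 1.59, 1.34 and 0.898 TPM at 2-4 h. No pair of libraries crossed between the stages for these genes. shd, which makes the active hormone, was listed higher (0.834 ± 0.171 TPM at 14-17 h and 0.439 ± 0.139 TPM at 2-4 h) with overlapping libraries, and its call was lost between the deep libraries alone (adjusted p = 0.0917). Among 14 response genes 10 rose (median 1.96), including the nuclear receptor Hr3† (3.69 ± 0.452 TPM at 14-17 h and 0.0624 ± 0.00845 TPM at 2-4 h, log2 fold change 5.91 ± 0.14 SE, adjusted p = 6.35e-10). The receptor gene EcR† was not called (4.01 ± 0.506 TPM at 14-17 h and 3.91 ± 0.245 TPM at 2-4 h), and Blimp-1, a repressor induced by the hormone, fell (0.307 ± 0.184 TPM at 14-17 h and 7.97 ± 0.227 TPM at 2-4 h). The partner of the receptor, usp†, was listed at 0 in all 5 older libraries and at 5.67, 5.77 and 8.6 TPM at 2-4 h; it lies inside the muscle gene Actn†, and no fold is given.

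Most nuclear genes of energy metabolism rose. All 15 genes of glycolysis and its regulator ERR rose, with a median of 2.74, and their share of counts was 0.507 ± 0.0316% at 14-17 h and 0.0631 ± 0.00494% at 2-4 h. Ldh, lactate dehydrogenase, had 179.6, 153, 165, 163 and 169.6 TPM at 14-17 h, against 9.42, 8.39 and 8.3 TPM at 2-4 h. Pfk, the committed enzyme, averaged 56.8 ± 3.53 TPM at 14-17 h and 5.71 ± 0.498 TPM at 2-4 h, and ERR† 27.6 ± 1.19 TPM at 14-17 h and 11.5 ± 0.59 TPM at 2-4 h. The stages did not overlap for any of the 3. Of 66 nuclear genes of oxidative phosphorylation, 62 rose by a median of 0.85, with a share of 1.58 ± 0.0793% at 14-17 h and 0.69 ± 0.0286% at 2-4 h. ATPsynbeta†, of the ATP synthase, averaged 1491 ± 96.9 TPM at 14-17 h and 477 ± 20.7 TPM at 2-4 h, Cyt-c-p, cytochrome c, 506 ± 48.3 TPM at 14-17 h and 219 ± 9.07 TPM at 2-4 h, and ND-75, of complex I, 203 ± 4.2 TPM at 14-17 h and 91.4 ± 9.73 TPM at 2-4 h. ND-AGGG was the one that fell (93.9 ± 20.8 TPM at 14-17 h and 181 ± 25 TPM at 2-4 h), with fractional counts in all 8 libraries.

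The 12 tested protein-coding genes of the mitochondrial genome did not rise with their nuclear partners: 5 fell, 1 rose and the median was -0.03. mt:CoI, of complex IV, had 11770.0, 12240.0, 11720.0, 16970.0 and 17110.0 TPM at 14-17 h, against 9826, 12900.0 and 10120.0 TPM at 2-4 h (adjusted p = 0.0709). mt:Cyt-b, of complex III, had 9032, 8244, 7823, 9598 and 9196 TPM at 14-17 h, against 7640.0, 11360.0 and 7745 TPM at 2-4 h (adjusted p = 0.983). The stages overlapped for both. mt:ND1 was called higher (log2 fold change 0.65 ± 0.27 SE, adjusted p = 0.0431) although its stages overlapped, and the call was lost under RLE or upper-quartile scaling, limma and without any 1 of replicates 5 and 6 at 14-17 h and 1 and 3 at 2-4 h. Vacuolar proton pump genes rose in 20 of 23 cases (median 2.18). Vha55 (3R:12623762-12627829), a catalytic subunit, had 595, 544, 597, 648 and 663 TPM at 14-17 h, against 40.3, 31.6 and 42 TPM at 2-4 h. Vha68-2 averaged 612 ± 29.3 TPM at 14-17 h and 31.3 ± 5.42 TPM at 2-4 h, and the membrane ring subunit Vha16-1 894 ± 63.8 TPM at 14-17 h and 200.1 ± 18.8 TPM at 2-4 h. VhaPPA1-2† (0.155 ± 0.19 TPM at 14-17 h and 4.82 ± 2.31 TPM at 2-4 h), VhaM9.7-c† (48.7 ± 3.63 TPM at 14-17 h and 113 ± 3.31 TPM at 2-4 h) and Vha100-1† (45.2 ± 1.74 TPM at 14-17 h and 56.8 ± 5.18 TPM at 2-4 h) fell, and all 3 overlap another gene; the call for Vha100-1† was lost without replicate 1 or 3 at 2-4 h (adjusted p = 0.0548 and 0.054).

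Among genes that overlap no other, the 10 with the greatest fitted losses were led by alpha4GT2 (3R:25832230-25842878), annotated as a glycosyltransferase, at 0, 0.0301, 0, 0 and 0 TPM at 14-17 h, against 197, 306 and 199 TPM at 2-4 h. CG43725 had 0, 2.5, 0, 0 and 0 TPM at 14-17 h, against 463, 757 and 518 TPM at 2-4 h, CG7271 had 1.2, 5.83, 0.385, 0 and 0.182 TPM at 14-17 h, against 627, 663 and 710.4 TPM at 2-4 h, and CG6885 had 0.0776, 0.62, 0.201, 0 and 0.217 TPM at 14-17 h, against 129, 158 and 140.3 TPM at 2-4 h. For CG43725 all of the older stage's reads, and for CG7271 most of them, were in replicate 2. The list also holds halo, term and 2 histone copies. 28SrRNA-Psi:CR45860, a ribosomal pseudogene, owed its place to replicate 2 at 2-4 h, with 6.37, 317 and 7.9 TPM at that stage, and DESeq2 gave it no adjusted p. CG43659 had 1 count over all 5 libraries at 14-17 h and 639 over the 3 at 2-4 h, and was 917-fold lower by CPM (95% Poisson interval 165 to 36220.0, counting error only). CG13427 had 20.9, 83.1, 12.4, 1.79 and 6.37 TPM at 14-17 h, against 5793, 5113 and 5736 TPM at 2-4 h (log2 fold change -7.64 ± 0.71 SE, adjusted p = 3.06e-06).

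The 10 with the greatest fitted gains were 3 cuticle genes, FBgn0052208 and 6 genes that have only a CG number. Ccp84Ae, a cuticle gene, averaged 819 ± 92.1 TPM at 14-17 h and 0.373 ± 0.46 TPM at 2-4 h. Lcp4, also a cuticle gene, had 45.7, 27.8, 35.5, 34.5 and 44.9 TPM at 14-17 h and 0 in all 2-4 h libraries, and Lcp65Aa had 65.1, 55.6, 72, 88.2 and 88.9 TPM at 14-17 h and 0 in all 2-4 h libraries. Set against the floor of 3 counts over the younger group, the bounds were 276-fold or more for Lcp4 and 239-fold or more for Lcp65Aa. CG12546 (3L:22693324-22693812) was at 4828, 4178, 4859, 4023 and 4073 TPM at 14-17 h, and at least 15060.0-fold higher against that floor. Its mean at 2-4 h was 2.25e-06 ± 3.18e-06 TPM, far below 1 read but not exactly 0. CG14452 (3L:22695953-22696435), close to it, was listed the other way, at 0 TPM at 14-17 h and 15.8 ± 10.9 TPM at 2-4 h. Whether the 2 genes share reads was not tested, so the bound for CG12546 is uncertain. CG3734 was at 85.3, 79.3, 93.1, 79.7 and 86.4 TPM at 14-17 h and at 0 at 2-4 h (at least 1777-fold), and FBgn0052208 varied from 128 to 624 TPM among the older libraries, with replicates 5 and 6 lowest. The counts of CG3734, FBgn0052208 and CG18493 were fractional in all 5 older libraries. The bounds for CG18493, CG34327, CG6688 and CG7402 were at least 1.43e+03-fold, 305-fold, 253-fold and 253-fold higher.

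The 10 genes with the highest deposited TPM at each stage were also chosen for naming. Because TPM here is per base of span, the choice is no order of abundance between genes. The sets share 5 genes: mt:lrRNA, mt:CoI, mt:CoIII†, mt:Cyt-b and the ribosomal protein gene RpL41†. None of the 4 mitochondrial genes was called. At 14-17 h the other 5 were muscle actin Act57B† and the cuticle genes Lcp65Ag3† (12360.0 ± 1172 TPM at 14-17 h and 35.3 ± 25.3 TPM at 2-4 h), Lcp65Ag2 (10180.0 ± 836 TPM at 14-17 h and 23.8 ± 18 TPM at 2-4 h), Cpr65Ea and TwdlM. At 2-4 h they were mt:CoII, mt:ATPase6†, the translation factor eEF1alpha1†, RpL21 and CG13427. eEF1alpha1† fell (3514 ± 237 TPM at 14-17 h and 7531 ± 741 TPM at 2-4 h, log2 fold change -1.09 ± 0.12 SE, adjusted p = 1.26e-05), as did RpL21 (4950.0 ± 382 TPM at 14-17 h and 6585 ± 109 TPM at 2-4 h, log2 fold change -0.40 ± 0.09 SE, adjusted p = 0.00173).

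By detection, 596 genes had at least 10 counts in every 14-17 h library and at most 3 in every 2-4 h library, and 132 genes the reverse. Of the gained genes 327 overlap no other gene and 350 have a symbol that begins with a CG or CR number. Of the lost genes these numbers were 50 and 51. Over all genes tested, 35.1% have such a symbol and 48.5% overlap another gene. Symbols with a prefix before the number, such as lncRNA:CR44504†, are not counted. Depth moves both counts: thinned to the smallest total, 1021 genes were gained and 164 lost. The count gained was 832 without replicate 1 at 2-4 h, and that lost was 185 without replicate 2 at 14-17 h and 191 without replicate 2 at 2-4 h.

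Many of the listed losses and gains at exactly 0 belong to overlapping genes. Of 61 genes at 0 in every 14-17 h library and above 10 counts in every 2-4 h library, 58 (95.1%) overlap another gene and 56 lie inside it, against 33.8% overlapping among the 71 that were low but not 0. Of 197 genes at 0 in every 2-4 h library, 149 (75.6%) overlap and 128 lie inside another gene, against 29.3% of the 399 that were low but not 0. Over all genes tested 48.5% overlap.

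The 10 genes of that kind with the greatest fitted losses include the gap gene Kr†, the replication licensing factor Cdc6†, the membrane protein gene bnk† of cellularisation and rhi†, a chromatin factor of piRNA clusters. Cdc6† averaged 0 CPM at 14-17 h and 246 ± 18.2 CPM at 2-4 h, while Zasp66†, the muscle gene around it on the opposite strand, averaged 552 ± 93.6 CPM at 14-17 h and 5.95 ± 3.19 CPM at 2-4 h. Kr† averaged 0 CPM at 14-17 h and 197 ± 7.79 CPM at 2-4 h, and CG9380†, around it, 706 ± 55.8 CPM at 14-17 h and 22.6 ± 2.68 CPM at 2-4 h. In all 10 pairs the surrounding gene was higher at 14-17 h. At 2-4 h, where the inner gene was not at 0, the surrounding gene was present as well, from 5.54 CPM for CG10936† to 242 CPM for Ogdh†. Whether reads of the inner gene went to the outer one was not tested. No fold is given for these genes, since the reads of the pair cannot be told apart.

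The 10 corresponding gains include LamC†, a nuclear lamin, Mlp84B†, a muscle LIM protein, Ank2†, a neuronal ankyrin, and the cuticle genes TwdlY† and TwdlX†. LamC† averaged 705 CPM at 14-17 h and 0 at 2-4 h, and ttv†, around it, 99.97 CPM at 14-17 h and 129.6 CPM at 2-4 h. Mlp84B† averaged 488 CPM at 14-17 h and 0 at 2-4 h, and Alh†, around it, 172 CPM at 14-17 h and 232.5 CPM at 2-4 h. Here the surrounding gene was higher at 14-17 h in 6 pairs, lower in 3 and not called in 1.

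The structure of the genes lost and gained is given as a description, with no test. Genes at least 8-fold lower had a median span of 1510 bases, those at least 8-fold higher 2662 and all genes tested 2571. Single-exon genes made up 36.3% of the first, 14.0% of the second and 13.5% of all. Part of this is the histone cluster on chromosome arm 2L: without histone genes the median spans were 1746, 2663 and 2600.0 bases, single-exon genes made up 28.8%, 14.0% and 12.8%, and arm 2L held 18.7%, 18.0% and 17.7%. Non-coding RNA genes made up 9.36% of genes at least 8-fold lower, 5.61% of those higher and 5.27% of all. Genes lying inside another gene made up 18.4% of those lower, 12.6% of those higher and 8.83% of all. Without histone genes these shares were 20.5%, 12.6% and 8.90%. Reads of nested genes can be assigned to the outer gene. The part of nesting in the differences of span and exon number was not tested. Where both of 2 neighbouring genes changed at least 2-fold, they moved the same way in 69.97% of 4961 adjacent pairs that do not overlap, 77.6% of 290 pairs overlapping on the same strand and 66.1% of 1098 overlapping on opposite strands. Over all genes tested, 31.0% were called and at least 2-fold lower and 40.4% at least 2-fold higher. The share of unrelated pairs that move the same way was not computed.

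**Figure D4:**
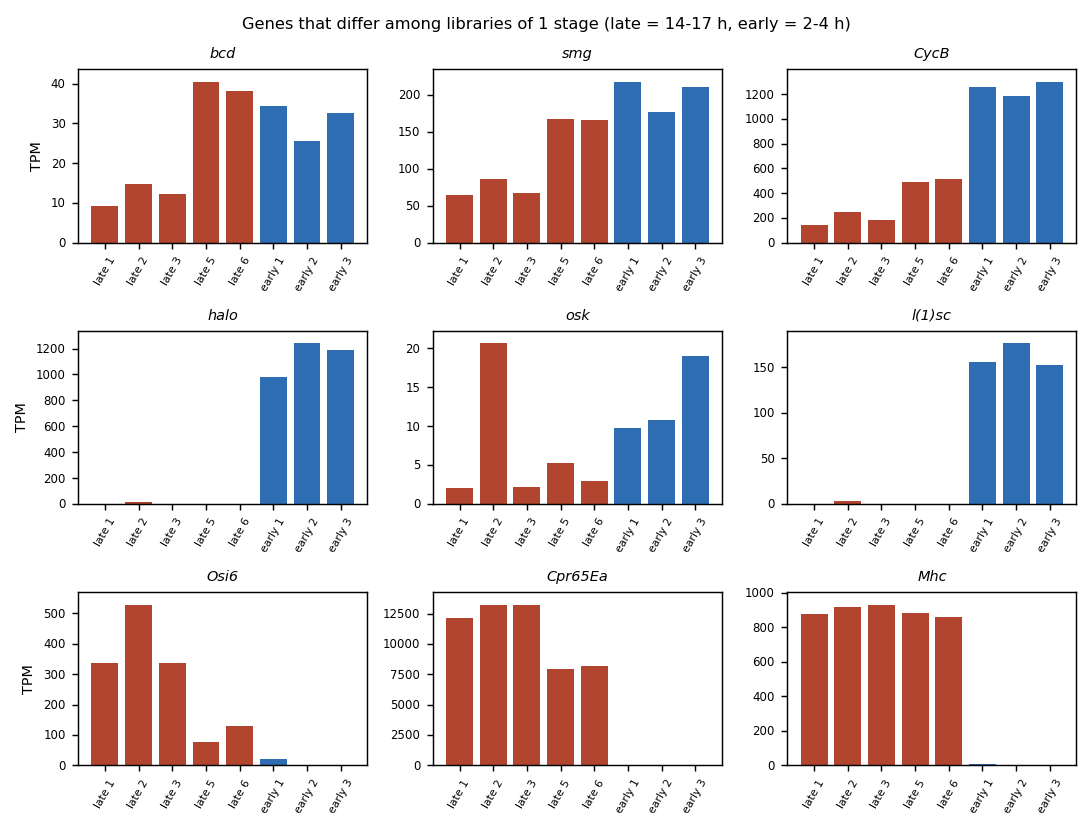
TPM of 9 genes in each library, 14-17 h (late, red) left of 2-4 h (early, blue). Replicates 5 and 6 at 14-17 h are high for bcd, smg and CycB and low for Osi6 and Cpr65Ea, replicate 2 at 14-17 h is high for osk, halo and l(1)sc, and replicate 1 at 2-4 h is high for Osi6 and Mhc within its group.

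To see whether the stage differences rest on those libraries, the fit was repeated with replicates 1 and 3 at 14-17 h against replicates 2 and 3 at 2-4 h, a choice made after the data were seen. It called 4944 genes lower and 5460 higher, of which 4776 and 5389 were among those called with all 8 libraries, and none changed direction. The refit shows which calls remain without the other libraries. Since its libraries are also part of the full fit, the shared direction is no independent check. In groups with every tested member called, such as the mitotic, replication and spliceosome genes, the count could not rise further. Elsewhere counts of genes lower moved: germ plasm genes lower numbered 9 instead of 6, egg activation genes 11 instead of 9, gap and terminal genes 17 instead of 15, septate junction genes 6 instead of 4 and ribosomal protein genes 34 instead of 38. Replicates 5 and 6 at 14-17 h were also the shallowest libraries, and the part of depth in their differences was not tested.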

How the data were processed

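Polyadenylated RNA of 8 wild-type libraries was sequenced and deposited by the authors as estimated counts and TPM per gene. The submitters' processing notes name CASAVA 1.8.2, kallisto and the dm6 genome. The annotation release and the strand setting are not given in the sources used here. Because 99.3% of the deposited lengths equal the genomic span, introns included, deposited TPM is per base of span, and reads from an intron or a nested gene can be assigned to the outer gene. Between 19.1% and 21.9% of the deposited values of a library were fractional (more than 0.001 from a whole number), which marks reads shared out between genes.

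After rounding, the estimated counts entered edgeR 4.0.16 (R 4.3.3): genes were kept by filterByExpr with a minimum of 10 counts, libraries scaled by TMM, and stages compared with the quasi-likelihood test and Benjamini-Hochberg adjustment over all 11636 genes kept, at 0.05. The biological coefficient of variation was 0.177. On simulated counts with the same library sizes the test recovered 88% of genes raised 2-fold and 84% of those lowered 2-fold. It recovered 100% of those changed 4-fold in either direction and called 0.103% of unchanged genes, with 9955 genes tested. The simulation gave both stages the 2-4 h means and the same spread to all genes, and changed only 50 well-expressed genes per fold. In the data 89.9% of genes differed, so these rates do not measure the error of the comparison itself. Replicate pairs differed by more than counting noise (chi-square per degree of freedom 18.7 to 43.1 at 14-17 h, except 5.46 for replicates 5 and 6, and 7.28 to 30.6 at 2-4 h), and each library was counted as 1 sample. Repeat libraries of 1 RNA sample would also exceed counting noise, so the check cannot show that replicates are separate samples. A gene whose counts round to 0 over a stage is given as at least a fold against a floor of 3 counts over that group. Floors and Poisson intervals cover counting error only. A single set of 60 gene lists (1431 genes) was used, and a gene can belong to more than 1 list, so groups are not separate results. The members and lists were chosen with earlier results of these data known. Genes were matched to the annotation (BDGP6.54, dm6) by identifier, and positions are counted from 1.

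Genes named are: per direction, the 10 with the largest fitted change among called genes that overlap no other, with a mean of at least 100 counts in the higher stage and no overlap between libraries; the first 3 members of each list; up to 4 members called against their list's direction; the 10 with the highest TPM at each stage; and, per direction, the 10 with the largest fitted change when overlapping genes are included. The partners of overlapping genes and members given as not called were named after their values were seen. Alternatives were limma 3.58.1 on log2 TPM with a pseudocount of 1 or 0.1, DESeq2 1.42.0, other scalings and filters, thinning, subsets of libraries and genes, and leaving out each replicate.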

Additional observations from a re-analysis of the deposited data

Results flagged for a closer look

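At 14-17 h, 36 of 316 values named or summed here had 1 library apart from the other 4, by a gap of more than 0.71 of the group's whole range (Dixon's criterion); chance flags about 1 in 20 such groups. Groups of 3 libraries, as at 2-4 h, were not examined.

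Replicate 2 was the library apart in most of them, and mostly on the side of transcripts that are abundant at 2-4 h. Against the highest of the other 4 older libraries, it held 12.4 TPM of halo (others up to 1.05), 7.45 TPM of term (1.52), 83.1 TPM of CG13427 (20.9), 5.83 TPM of CG7271 (1.20), 2.50 TPM of CG43725 (0), 5.21 TPM of zen (1.53), 20.6 TPM of osk† (5.27) and 2.76 TPM of l(1)sc† (0.496). Among later patterning and progenitor genes it held 9.80 TPM of en (7.57), 1.67 TPM of hh (1.26), 2.41 TPM of amos (0.368), 1.77 TPM of lmd (0.979) and 10.8 TPM of fra† (9.20). For cell cycle and upkeep genes it held 43.5 TPM of stg (28.9), 17.4 TPM of Mcm2 (10.2), 128 TPM of His4:CG33907 (39.2) and 70.6 TPM of Prosbeta1† (62.7). It also stood highest for dib† at 2.68 TPM (1.13), ImpL2 at 30.1 TPM (22.7), Obp99a at 226 TPM (132) and Obp99b at 5.31 TPM (1.98).

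By summed CPM, replicate 2 held 85.2 of histone genes (others up to 38.1), 1249 of germ plasm genes (1087) and 1784 of segment polarity genes (1601). It was the lowest for neuropeptides, at 302 CPM (others from 346), for the proton pump, at 8937 CPM (others from 9798), and for Dh44†, at 2.98 TPM (others from 4.21).

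Replicate 1 was highest for Peritrophin-15a at 195 TPM (others up to 72.7), Sh† at 4.58 TPM (3.99), dlg1 at 21.7 TPM (20.4), Hsc70-4 at 1297 TPM (1177) and the fat body genes at 4499 CPM (3760.0), and lowest for Hsp22† at 6.13 TPM (others from 14.6). Replicate 5 was highest for dl at 21.7 TPM (19.6) and LysX at 1.18 TPM (0.215) and lowest for fkh at 40.3 TPM (others from 46.6).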

How the results depend on the processing

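Over the alternatives fitted per gene, 0 genes were called in opposite directions. The directions of merged loci were not compared with those of single genes. Counts of genes lower stayed between 4570 (thinned to the smallest total) and 5150 (no filter), and of genes higher between 5248 (thinned) and 6038 (no filter). These ranges leave out the shallow libraries alone, with 1 library at 2-4 h. Merging overlapping genes gave 3832 lower and 4344 higher of 8982 loci. Where only non-overlapping genes were tested, 2431 were lower and 2953 higher, 1852 and 2563 at least 2-fold, and 462 and 1857 at least 8-fold. By detection 327 of these were gained and 50 lost, since fewer genes are in that table. With limma on log2(TPM + 1), 554 genes were at least 8-fold lower and 1801 higher, as the pseudocount shrinks low genes. Detection gave 1021 gained after thinning, 197 gained and 61 lost when the other stage had to be at 0, and 1168 gained and 212 lost with replicates 1 and 3 at 14-17 h against 2 and 3 at 2-4 h (chosen after seeing the data). Leaving out 1 replicate gave 4678 to 5039 genes lower and 5435 to 5604 higher, 3511 to 3743 at least 2-fold lower and 4607 to 4789 higher, 824 to 922 at least 8-fold lower and 3107 to 3250 higher, 596 to 832 gained and 132 to 191 lost.

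The median over all genes was 0.18 as reported, 0.12 with upper-quartile scaling, 0.25 with RLE and 0.38 with DESeq2. Of named genes' values under alternatives, 6753 kept direction and side of the threshold, 84 lost and 53 gained a call, and 3 turned, all between shallow libraries, where 2-4 h is replicate 2 alone and that library is assumed to vary like the older ones: Yp3 (1.40), bcd (0.65) and mt:Cyt-b (-0.24). Of list medians under alternatives, 1092 moved by less than the spread between replicates, 398 by more and 7 turned; 109 moved by over 1.5 times in fold, in 35 of the lists. Of list counts, 188 moved by over 1.5 times and 2812 did not. List medians turned for germ plasm (1.13) and ecdysteroid synthesis (3.90) without overlapping genes, eggshell (0.35 with DESeq2, 0.52 without a filter, -2.735 to 1.35 leaving out 1 replicate, the highest without replicate 2 at 2-4 h) and yolk proteins (1.40 between shallow libraries, -2.758 to 0.02 leaving out 1 replicate); the cause was not tested. Deviations of same-numbered replicates from their stage means were nearly uncorrelated (0.0067, 0.0875 and 0.0132). Differently numbered replicates were not set beside them, so this cannot exclude that numbers pair samples. With the replicate block, replicates 1 to 3 gave 4958 genes lower and 5448 higher, and without it 5024 and 5536.

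Positions, nesting and shared reads limit overlapping genes, which are 48.5% of those tested. The 3 libraries at 2-4 h, 1 of them shallow, and the uneven older libraries limit small changes: calls near the threshold, such as those of ribosomal protein genes, depend on which library is used.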

Other observations

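Gene groups not described above showed these values, given with no explanation. Of 25 tested odorant-binding protein genes, which encode small secreted carriers, 22 rose and 3 fell, with a median of 5.86 (4.97 with genes at 0 set to their bound). Obp44a† averaged 366 ± 48.1 TPM at 14-17 h and 5.19 ± 1.09 TPM at 2-4 h, whereas Obp99a fell, with 116, 226, 132, 124 and 99.4 TPM at 14-17 h, against 593, 539.8 and 691 TPM at 2-4 h (log2 fold change -2.12 ± 0.23 SE, adjusted p = 8.52e-06). Among heat shock genes, 10 of 18 rose and 4 fell (median 0.81); the Hsp70 genes are near-identical copies and are not read singly. The constitutive chaperone Hsc70-4 fell (1194 ± 57.8 TPM at 14-17 h and 3191 ± 286 TPM at 2-4 h), Hsp83† rose (416 ± 76.2 TPM at 14-17 h and 241 ± 24.6 TPM at 2-4 h) and Hsp26 was not called (86.5 ± 36.8 TPM at 14-17 h and 78 ± 24.1 TPM at 2-4 h).

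BTB zinc-finger transcription factor genes, the family of the gene mutated elsewhere in the study, did not move together: 4 of 13 fell and 5 rose (median -0.01). lola† had 39, 42.7, 36.7, 47 and 45.5 TPM at 14-17 h, against 101, 99.9 and 105 TPM at 2-4 h, and no older library reached a younger one (log2 fold change -1.26 ± 0.12 SE, adjusted p = 2.51e-06); its span overlaps 6 other genes and its counts were fractional in 7 libraries. lolal averaged 96.2 ± 8.19 TPM at 14-17 h and 417 ± 14.4 TPM at 2-4 h, psq 7.14 ± 1.0 TPM at 14-17 h and 26.1 ± 0.316 TPM at 2-4 h and mod(mdg4)†, whose span overlaps 23 genes, 22.2 ± 2.71 TPM at 14-17 h and 69.4 ± 4.33 TPM at 2-4 h; all 3 fell. ttk was not called (18.7 ± 2.4 TPM at 14-17 h and 18.8 ± 2.33 TPM at 2-4 h).

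Of 9 tested photoreceptor genes 7 rose (median 3.87, or 4.87 without replicate 3 at 2-4 h). ninaE, the main rhodopsin of the adult eye, averaged 0.66 ± 0.318 TPM at 14-17 h and 0.0277 ± 0.048 TPM at 2-4 h. Rh4† was the member that fell (0.97 ± 0.478 TPM at 14-17 h and 5.14 ± 0.147 TPM at 2-4 h), with fractional counts in all 8 libraries. Of the yolk protein genes, which are made in adult females, only Yp3 was abundant enough to test and was not called (1.74 ± 0.486 TPM at 14-17 h and 2.63 ± 1.9 TPM at 2-4 h, adjusted p = 0.177).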
